A study of Mus musculus with 12 samples.

Results

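The keratin genes were described in 12 mouse libraries, 6 from CX3CR1+ cells of dorsal skin and 6 from liver. A gene was taken as a member where its identifier mapped to a symbol made of Krt, a number and at most 1 letter, which leaves out the keratin-associated proteins. This rule gave 54 of the 57180 genes in the deposited table, 28 of type I and 26 of type II. The type was assigned from the chromosome in RefSeq's annotation, type I for members on chromosome 11 and type II for those on chromosome 15. The exception was Krt18, a type I gene that lies beside Krt8 on chromosome 15. Krt74 is annotated there as a transcribed pseudogene.

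Keratins are the intermediate filament proteins of epithelia, and each filament is built from pairs of a type I and a type II chain. Basal keratinocytes make Krt5 and Krt14, differentiating suprabasal keratinocytes make Krt1 and Krt10, and wounded or hyperproliferative epidermis and parts of the hair follicle make Krt6a, Krt16 and Krt17. Simple epithelia use Krt8 and Krt18, the keratin pair of hepatocytes, and bile duct cells add Krt7 and Krt19.

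The skin libraries came from CX3CR1+ cells of Cx3cr1-creER:Ai9 mice that had received CCl4 (carbon tetrachloride, a solvent toxic to hepatocytes; 3 libraries) or vehicle (3 libraries), and were made by smart-seq. In this strain a tamoxifen-dependent Cre recombinase is driven by the promoter of Cx3cr1, a chemokine receptor gene of macrophages and some other leukocytes, and Ai9 is a fluorescent reporter that Cre switches on. All skin libraries shared this genotype. The liver libraries came from C57 mice that had received CCl4 (3 libraries) or vehicle (3 libraries), and were made as bulk RNA-seq. The design text speaks of hepatocytes and the labels of liver. The sources used here do not give the dose, the time after treatment, tamoxifen treatment, cell numbers, or the sex and age of the animals. The replicates are called biological in the design text. All values are TPM, a transcript abundance in which each gene is scaled for length and each library to the same total, so that depth is unknown.

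The promoters of 5 keratins are shown because the results turn on these genes: the liver pair Krt8 and Krt18, the duct keratin Krt7, and Krt14 and Krt10 as leading transcripts of basal and suprabasal keratinocytes. Each is the stretch of 250 bases before the gene's RefSeq start, 5′ to 3′ in the gene's direction, from the GRCm38.p6 build, which is not the GRCm39 build of the TPM table. Capitals mark every match, on either strand, of 3 short motifs: TATAAA, the core of a TATA box, GGGCGG, a GC box, and TGANTCA, an AP-1 type element.
Krt8 promoter, chr15:102004343-102004592, minus strand: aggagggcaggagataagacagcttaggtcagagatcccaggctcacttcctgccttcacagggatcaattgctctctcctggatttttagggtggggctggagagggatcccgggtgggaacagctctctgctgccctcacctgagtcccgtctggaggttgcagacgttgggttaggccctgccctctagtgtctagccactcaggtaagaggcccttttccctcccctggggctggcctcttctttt
Krt18 promoter, chr15:102027966-102028215, plus strand: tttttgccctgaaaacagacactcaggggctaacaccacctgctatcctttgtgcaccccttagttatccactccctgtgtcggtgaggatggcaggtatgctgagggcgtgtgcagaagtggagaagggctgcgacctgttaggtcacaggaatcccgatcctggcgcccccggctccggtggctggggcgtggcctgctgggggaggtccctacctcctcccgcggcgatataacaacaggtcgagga
Krt7 promoter, chr15:101412153-101412402, plus strand: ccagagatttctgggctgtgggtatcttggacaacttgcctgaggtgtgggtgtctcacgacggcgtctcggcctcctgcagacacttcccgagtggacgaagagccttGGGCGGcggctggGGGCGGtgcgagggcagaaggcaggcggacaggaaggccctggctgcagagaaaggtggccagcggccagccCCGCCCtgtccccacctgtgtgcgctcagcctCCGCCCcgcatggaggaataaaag
Krt14 promoter, chr11:100206031-100206280, minus strand: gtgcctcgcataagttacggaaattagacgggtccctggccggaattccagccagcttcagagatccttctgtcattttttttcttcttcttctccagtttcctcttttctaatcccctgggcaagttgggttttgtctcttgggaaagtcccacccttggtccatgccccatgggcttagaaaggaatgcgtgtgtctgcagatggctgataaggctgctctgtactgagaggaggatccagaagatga
Krt10 promoter, chr11:99389365-99389614, minus strand: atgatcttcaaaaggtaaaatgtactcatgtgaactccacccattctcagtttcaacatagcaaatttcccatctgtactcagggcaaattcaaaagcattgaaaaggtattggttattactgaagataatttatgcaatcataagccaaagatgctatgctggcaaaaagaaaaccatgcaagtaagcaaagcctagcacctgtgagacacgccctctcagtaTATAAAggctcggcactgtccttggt
The Krt10 window held TATAAA 26 bases before the start. The Krt7 window held GGGCGG 4 times, with a pair on each strand. The Krt8, Krt18 and Krt14 windows held none of the 3 letter strings, which says nothing about the factors that bind there. Promoter windows were available for 36 of the 54 keratins, with 37 windows between them. Krt1, Krt6a, Krt15, Krt16, Krt17 and Krt19 were among those without a window. TATAAA was present in 17 of these windows (45.9%), against 12.4% of all 32851 RefSeq promoter windows of that length. GGGCGG was present in 2 keratin windows (5.41%), against 32.7% of all windows. TGANTCA was present in 2 keratin windows (5.41%), against 6.75% of all windows. Both belong to 1 gene, Krt13, the only keratin with 2 windows.

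Members differed widely in level. Of the 54 keratins, 8 were listed at 0 in all 12 libraries, 22 reached no more than a level under 1 TPM, and 24 reached 1 TPM in at least 1 library. The members at 0 throughout were the hair shaft genes Krt31, Krt33a and Krt33b, the inner root sheath genes Krt72, Krt73 and Krt74, the mucosal gene Krt76, and Krt88. In the skin cells, 15 keratins were at 1 TPM or more in all 6 libraries. In liver only Krt8 and Krt18 were, and 33 keratins were listed at 0 in all 6 liver libraries.

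Summed keratin levels were 3178, 3665 and 1556 TPM in skin cells after CCl4 and 1615, 3402 and 1455 TPM in skin cells after vehicle. The liver sums were 252, 243 and 414 TPM after CCl4 and 418, 186 and 333 TPM after vehicle. Every skin library thus held more keratin RNA per deposited total than any liver library, and in each tissue the CCl4 and vehicle sums overlapped on that scale. In liver this overlap depends on the scaling. With mitochondrially encoded genes and their near copies left out of the total, the leading liver keratins Krt8 and Krt18 were higher in every CCl4 liver than in any vehicle liver. On that scale 66.8% of all genes tested were called higher, so a rise is not particular to keratins. The share of all genes without overlap was not counted there. The make-up differed more than the sum. Basal keratins gave 20.4% to 72.0% of keratin TPM in the skin libraries, whereas the simple-epithelial keratins Krt7, Krt8, Krt18 and Krt19 gave 0.103% to 4.14%. In liver, simple-epithelial keratins gave 99.0% to 99.6% of keratin TPM.

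**Figure D1:**
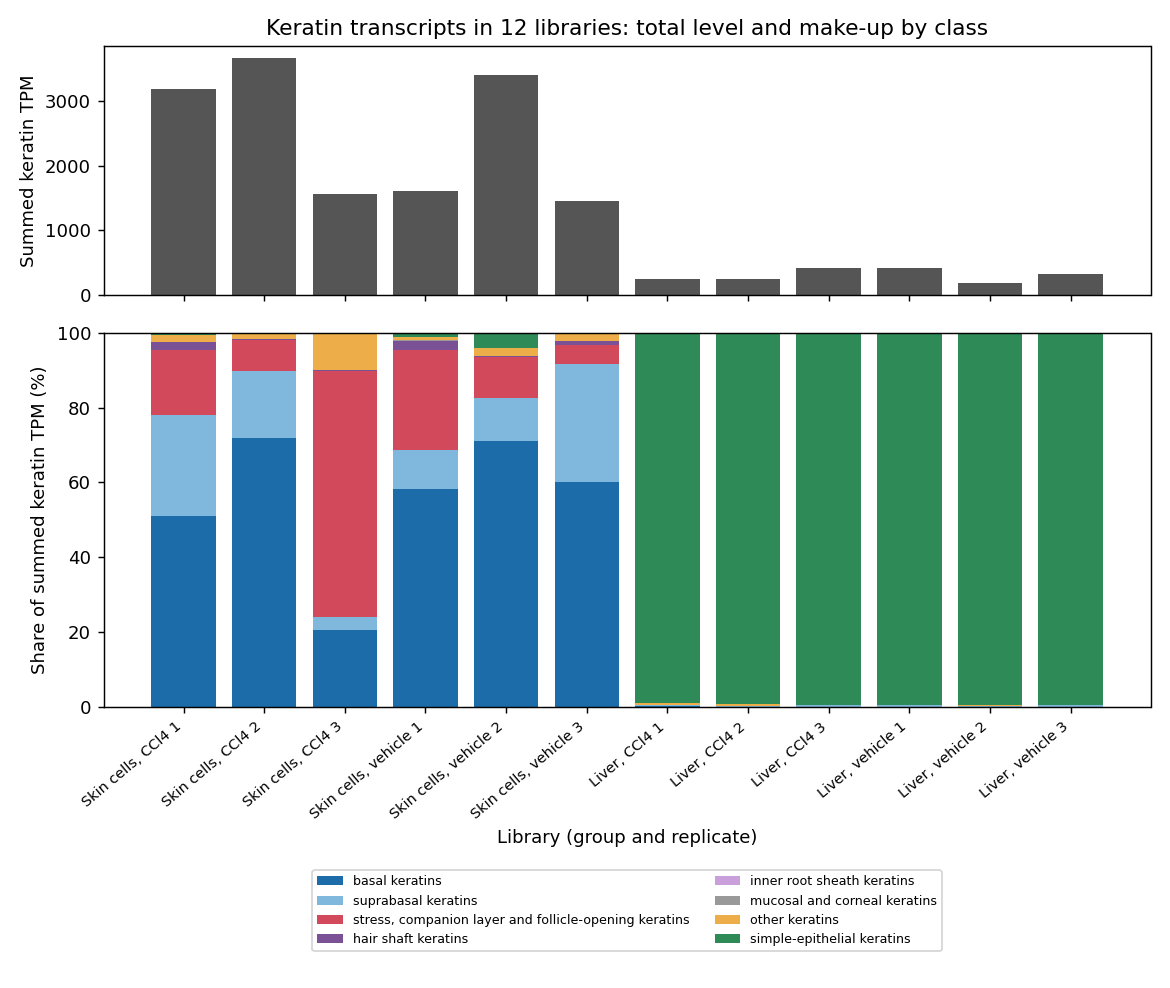
Keratin transcripts in the 12 libraries, with skin cells at the left and liver at the right and CCl4 libraries before vehicle ones. Grey bars give the summed keratin TPM, and stacked bars the share of that sum by keratin class in percent; the skin bars are mostly basal, suprabasal and stress keratins, the liver bars simple-epithelial keratins.

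Facts of the libraries that touch these results are as follows. The skin libraries held leukocyte transcripts together with keratinocyte ones. Summed TPM of 12 macrophage and monocyte markers was 7089, 9212 and 327 after CCl4 and 9104, 19310 and 25390 after vehicle, and that of 16 keratinocyte markers other than keratins was 13580, 13080 and 26770 after CCl4 and 3762, 3164 and 14240 after vehicle. Cx3cr1, the receptor that names the cells, was at 5.28, 0 and 0.28 TPM after CCl4 and 3.91, 0.27 and 0.91 TPM after vehicle, so this defining marker was low or listed at 0. Skin CCl4 replicate 3 stood apart: its macrophage sum was the lowest of the skin libraries, its 6 Langerhans cell markers summed to 342 TPM, against 13310 to 47380 TPM elsewhere, and its keratinocyte sum was the highest. Elsewhere the Langerhans sum was mostly Cd74 and H2-Ab1. In replicate 3 Cd207 of that list was lowest, at 1.08 TPM, but Epcam was highest, at 113 TPM. Krtdap gave 19821 TPM of its keratinocyte sum, whereas Lgals7 of that list was lowest there, at 84.8 TPM. The skin libraries numbered 1 listed 28357 genes above 0 after CCl4 and 28870 after vehicle, against 21328 to 23494 in the other skin libraries. In liver, mitochondrially encoded genes and their near copies took 82.1%, 80.2% and 68.1% of TPM after CCl4 and 28.4%, 25.9% and 25.7% after vehicle, which leaves less of the fixed total to every other gene.

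Skin cells after vehicle were set against liver after vehicle to see which keratins mark each material. Tissue, assay, cell selection and mouse strain cannot be told apart in this comparison, and in bulk material neither can fewer cells of a type and less RNA per cell. Of the 54 keratins, 18 entered the test (limma on log2(TPM + 1), genes at 1 TPM or more in at least 3 of the 12 libraries). Of these 15 were higher in the skin cells, where 46% of all tested genes were higher, 2 were lower, where 11.3% were lower, and 1 did not pass an adjusted p of 0.05. The 2 lower ones were Krt8 and Krt18. Only Krt8, Krt18 and Krt10 reached 1 TPM in at least 3 liver libraries, and the other 15 of the 18 passed the filter through the skin libraries, where they are high, so the count of higher members is largely fixed by the filter and is given as a description. Krt14 had the greatest difference, 9.35 ± 0.56 (log2, SE; adjusted p = 1.13e-07, n = 3 per group), followed by Krt15 at 8.51, Krt5 at 7.36, Krt17 at 6.78 and Krt10 at 6.55. The difference was -3.95 ± 1.16 for Krt8 (adjusted p = 0.0127) and -4.13 ± 0.63 for Krt18 (adjusted p = 2.06e-04). Of the 15, 11 were listed at 0 in the vehicle livers, so the size of the difference depends on the pseudocount. Krt6a, at 2.13 ± 0.89, had an adjusted p of 0.0583, and it was called, making 18, when any 1 of the 3 skin CCl4 libraries was left out of the shared estimate of spread.

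**Figure D2:**
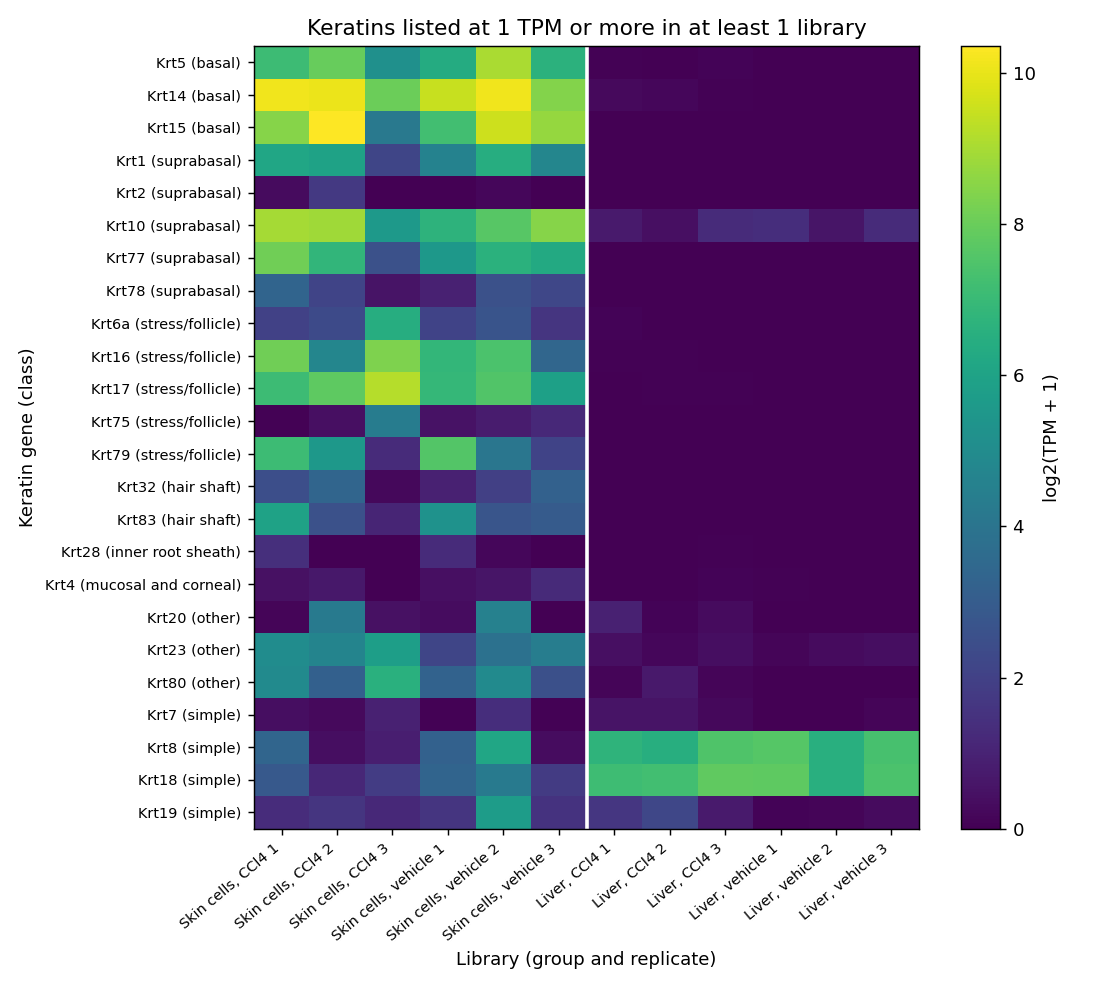
Levels of the 24 keratins that reached 1 TPM in at least 1 library, as log2(TPM + 1), with genes down the page by class and libraries across, CCl4 before vehicle in each tissue and a white line between skin cells and liver. Krt8 and Krt18 are the bright rows of the liver side, and Krt14, Krt15, Krt10, Krt16 and Krt17 are among the bright rows of the skin side.

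In liver, the hepatocyte pair Krt8 and Krt18 stayed within the spread of the replicates on the deposited scale. Krt8 (ENSMUSG00000049382), the type II chain, was at 105, 88.7 and 181 TPM after CCl4 and 198, 92.7 and 161 TPM after vehicle. The 2 groups overlapped, and vehicle replicate 2 was low. Its log2 difference was -0.27 ± 0.39 (SE; limma adjusted p = 0.552, n = 3 per group). Krt18 (ENSMUSG00000023043), the type I partner, was at 142, 149 and 230 TPM after CCl4 and 218, 92.7 and 171 TPM after vehicle. These groups overlapped too, and its log2 difference was 0.16 ± 0.38 (adjusted p = 0.713).

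Krt10, a suprabasal keratin, was the other keratin tested in liver, at 0.70, 0.33 and 1.41 TPM after CCl4 and 1.53, 0.50 and 1.41 TPM after vehicle, with a log2 difference of -0.25 ± 0.26 (adjusted p = 0.415). Thus 0 of the 3 keratins tested by limma in liver passed the threshold, and 0 had an unadjusted p under 0.05. Of all 10385 genes tested in liver, 61.4% were called, 10.3% higher and 51.1% lower after CCl4, 66% had an unadjusted p under 0.05, and the median log2 difference was -0.59. With robust moderation limma also called 0 of the 3.

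The keratin calls in liver depended on the scaling. Relative to the median of all genes, Krt8 stood 0.32 and Krt18 0.75 above it on the log2 scale with TPM as deposited. With median-ratio scaling, where the median of all genes was -0.11, 17.7% of genes were called higher and 26.2% lower, Krt8 was at 0.34 (adjusted p = 0.454) and Krt18 at 0.78 (adjusted p = 0.109). With quantile normalization, where the median was -0.15, 17.1% of genes were higher and 24.8% lower, both were called higher: Krt8 at 1.03 (adjusted p = 0.0248) and Krt18 at 1.47 (adjusted p = 0.0089). With mitochondrially encoded genes and their near copies taken out of the library total, where the median was 0.85, 66.8% of genes were higher and 4.2% lower. Krt8 was then at 1.43 (adjusted p = 0.0037) and Krt18 at 1.87 (adjusted p = 0.0016), 0.59 and 1.02 above that median. On the rescaled values Krt8 was at 585, 449 and 568 TPM after CCl4 and 277, 125 and 216 TPM after vehicle, and the groups did not overlap. Krt18 was at 794, 755 and 720.3 TPM after CCl4 and 304, 125 and 229.6 TPM after vehicle, again without overlap. The share of all genes without overlap was not counted on these rescaled values. The direction of Krt8 was therefore negative on the deposited scale and positive on the other 3, and Krt18 was above 0 on all 4.

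**Figure D3:**
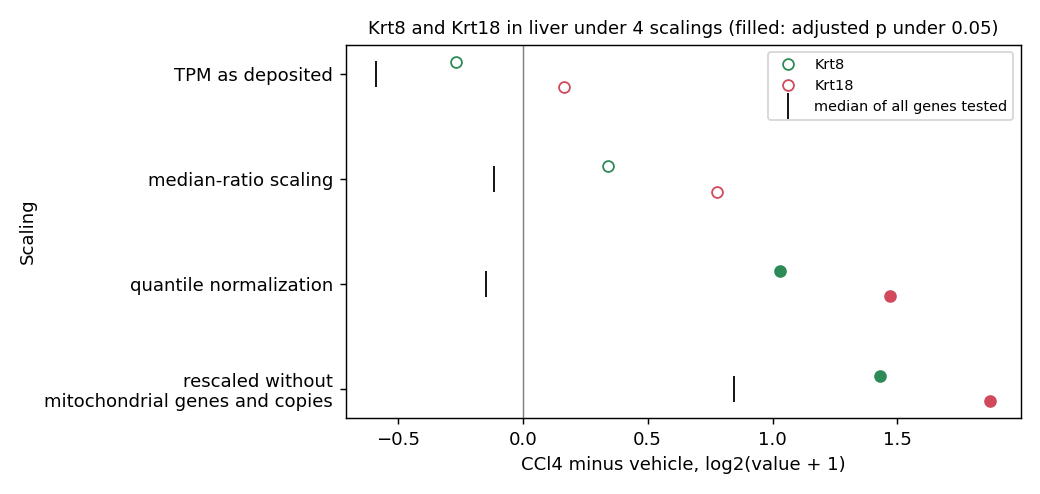
Log2 difference between CCl4 and vehicle liver (log2(value + 1), horizontal axis) of Krt8 and Krt18 under 4 scalings of the TPM table (vertical axis), with filled points for an adjusted p under 0.05 and a tick for the median of all genes tested. Both keratins lie to the right of the tick in each row, and are called under quantile normalization and after leaving out mitochondrial genes.

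The balance of both chains does not depend on the scaling, since it is taken within a library. The ratio of Krt8 to Krt18 TPM was 0.737, 0.595 and 0.788 after CCl4 and 0.911, 1.00 and 0.941 after vehicle, with means of 0.707 ± 0.1003 after CCl4 and 0.951 ± 0.0451 after vehicle (SD, n = 3 each). The ratio was lower in every CCl4 liver than in any vehicle liver. It was chosen after its values were seen and is given as a description. In the transcript sequences of GENCODE M21, 16.9% of the 100-base windows of Krt8 also occur in another gene, mainly the pseudogene Krt8-ps, whereas none of those of Krt18 do, and Krt8-ps was listed at 0 to 0.37 TPM.

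The keratins of bile ducts were low in liver. Krt19, a duct and progenitor keratin, was at 2.15, 3.63 and 0.67 TPM after CCl4 and 0.07, 0.10 and 0.23 TPM after vehicle, so that the groups did not overlap. Krt7, its type II companion in ducts, was at 0.46, 0.47 and 0.17 TPM after CCl4 and 0, 0.02 and 0.11 TPM after vehicle, again without overlap. Krt20, a keratin of gut epithelium, urothelium and Merkel cells, was at 0.93, 0.08 and 0.23 TPM after CCl4 and was listed at 0 in the vehicle livers.

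Over all genes above 0 in liver, 15.1% had every CCl4 library above every vehicle one and 28.9% had every one below. Among keratins 6 were above (Krt5, Krt7, Krt14, Krt19, Krt20 and Krt80) and 0 below, and 5 of the 6 never reached 1 TPM there. The CCl4 livers listed more genes above 0 in general, 19933, 20757 and 19473, against 17568, 17828 and 17602 in the vehicle livers. None of these 6 keratins passed the filter on low values. When every gene above 0 was tested, limma called 3 keratins higher, where 8.03% of genes were higher and 18.1% lower: Krt19 at 1.36 ± 0.37 (log2, SE; adjusted p = 0.0419), Krt7 at 0.38 ± 0.10 (adjusted p = 0.0391) and Krt14 at 0.17 ± 0.05 (adjusted p = 0.0429). Krt14 was near the floor, at 0.19, 0.14 and 0.05 TPM after CCl4 and listed at 0 in the vehicle livers. When mitochondrial genes and copies were also left out, a combination chosen after seeing the data, 7 keratins were called higher (Krt5, Krt7, Krt8, Krt14, Krt18, Krt19 and Krt222), where 36% of genes were higher and 1.56% lower. Among them Krt222 was at 0.10, 0.15 and 0.07 TPM after CCl4 and 0.08, 0 and 0.02 TPM after vehicle, as deposited. Krt5 was at 0.04, 0.02 and 0.07 TPM after CCl4 and listed at 0 in the vehicle livers, as deposited.

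**Figure D4:**
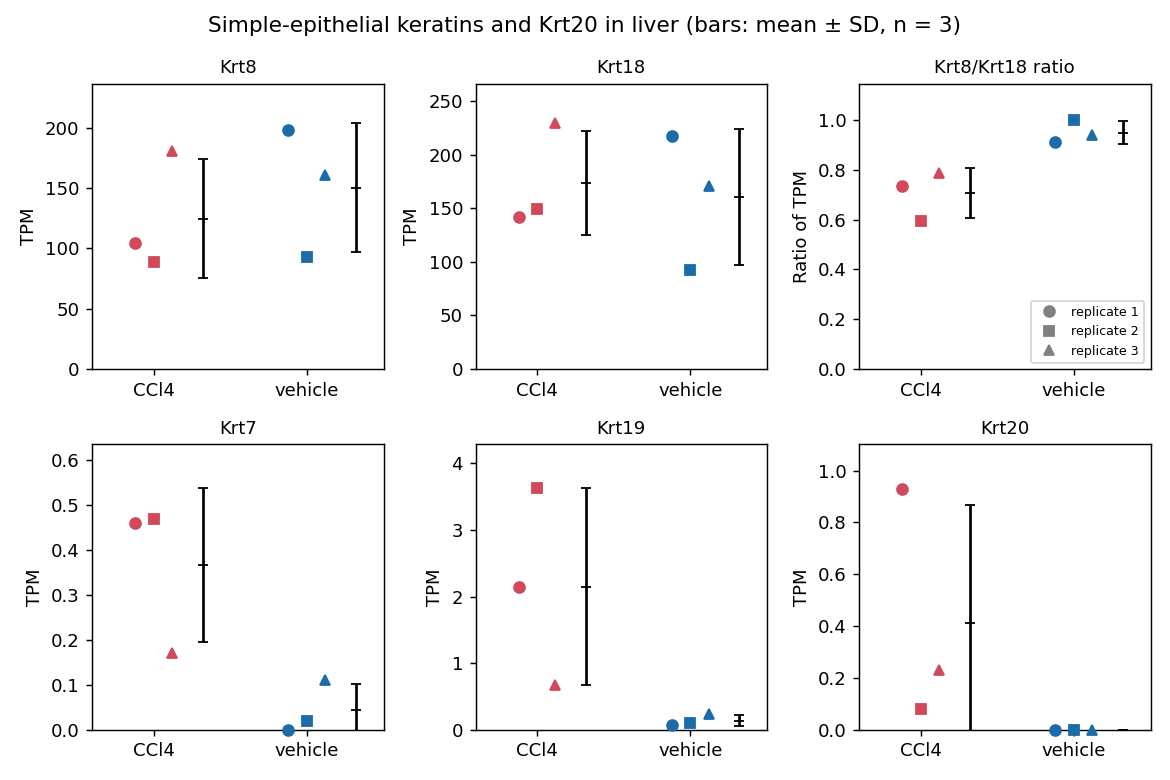
Krt8, Krt18, their ratio, Krt7, Krt19 and Krt20 in liver in TPM (the ratio has no unit), 1 point per library with CCl4 at the left and vehicle at the right, and bars for the mean ± SD (n = 3), drawn down to 0 at most. The groups overlap for Krt8 and Krt18 and do not overlap for the other 4 panels.

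Markers of other cells moved beside the low liver keratins. The 12 bile duct markers other than keratins summed to 39.1, 69.5 and 51.7 TPM after CCl4 and 31.2, 34.3 and 33.5 TPM after vehicle, 5 of them were tested, and 2 were called higher and 3 lower on the deposited scale, against 5 higher and 0 lower without mitochondrial genes. The 2 higher ones were Spp1, the secreted matrix protein osteopontin, and Sox9, a duct and progenitor transcription factor. Spp1 was at 20.9, 51.4 and 24.6 TPM after CCl4 and 2.52, 5.12 and 2.55 TPM after vehicle. It carried the rise of the duct sum on the deposited scale. Among the 3 lower ones, Anxa4 was at 9.79, 8.49 and 13.6 TPM after CCl4 and 17.2, 16.6 and 19.2 TPM after vehicle. Mesothelial markers, whose cells also make Krt7 and Krt19, summed to 3.89, 9.49 and 1.12 TPM after CCl4 and 0, 0 and 0.17 TPM after vehicle. CCl4 replicate 2 was highest for the mesothelial sum, for Krt19 and, through Spp1, for the duct sum, whereas Anxa4 was lowest there. All 10 hepatocyte markers were lower after CCl4, with a median log2 difference of -2.36 on the deposited scale, and 5 of them were called lower and 0 higher without mitochondrial genes. Their part in the keratin levels was not tested.

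Genes that work with keratins were examined in liver. Of 18 desmosome and plakin genes, which anchor keratin filaments at cell junctions, 9 were tested and 8 fell on the deposited scale, with a median log2 difference of -0.98, where 51.1% of all genes were lower. They included the desmosomal cadherins Dsg1c (-1.23 ± 0.17, adjusted p = 2.76e-04), Dsg2 (-1.56 ± 0.31, adjusted p = 0.0017) and Dsc2 (-1.32 ± 0.27, adjusted p = 0.0018), and Perp, a desmosome-associated membrane protein (-1.48 ± 0.36, adjusted p = 0.0048). Dsg2 was at 6.15, 4.56 and 12.2 TPM after CCl4 and 22.8, 23.1 and 22.6 TPM after vehicle. The direction of this list changed with the scaling: 4 were called lower and 1 higher with median-ratio scaling, 3 lower and 0 higher with quantile normalization, and 1 lower and 4 higher without mitochondrial genes. Relative to the median of all genes, the list's median was -0.39, -0.39, -0.40 and -0.46 on these 4 scales, with TPM as deposited given first.

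Of 13 other intermediate filament genes 5 were tested in liver and 3 rose, where 10.3% of all genes were higher. Vim, which encodes the vimentin of mesenchymal cells and leukocytes, was at 19.7, 44.0 and 11.8 TPM after CCl4 and 0.44, 2.06 and 1.47 TPM after vehicle, a log2 difference of 3.37 ± 0.42 (adjusted p = 1.40e-04). Nes, the filament gene nestin of progenitor and mesenchymal cells, differed by 1.72 ± 0.28 (adjusted p = 6.29e-04) and the nuclear lamin gene Lmnb1 by 0.71 ± 0.20 (adjusted p = 0.0091). Lmna did not pass the threshold, at 0.59 ± 0.26 (adjusted p = 0.0658). Vim, Nes and Lmnb1 kept their direction on the other 3 scalings, where 4, 4 and 5 of the 5 were called higher. In the same comparison all 10 macrophage and monocyte markers tested were higher. The 12 listed summed to 356, 549 and 153 TPM after CCl4 and 23.8, 52.1 and 36.0 TPM after vehicle. All 5 fibroblast markers tested were higher too. The 6 listed summed to 139.5, 165 and 71.5 TPM after CCl4 and 6.20, 8.85 and 7.0 TPM after vehicle. The part of either cell type in the filament genes' levels was not tested. Of 9 hemidesmosome genes 4 were tested and Itga6, a laminin-binding integrin chain, rose by 1.14 ± 0.22 (adjusted p = 0.0013). Median-ratio scaling and quantile normalization also called 1 of the 4 higher, and 4 of 4 were higher without mitochondrial genes.

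Of 17 keratinocyte and follicle transcription factors in the table, 3 were tested in liver. Klf4, an epithelial differentiation factor that other cells also express, rose by 1.73 ± 0.23 (log2, SE; adjusted p = 1.84e-04) and Sox9 by 0.64 ± 0.21 (adjusted p = 0.0213). Zfp750, an epidermal differentiation factor, fell by 0.73 ± 0.25 (adjusted p = 0.025) on the deposited scale but was at 0.35 without mitochondrial genes. Of 14 epithelial partners of simple keratins, 6 were tested: Spp1 and Sox9 were higher on the deposited scale. The tight junction gene Cldn3 was lower on that scale (-0.97 ± 0.33, adjusted p = 0.024) and above 0, at 0.67, without mitochondrial genes.

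In the skin cells, keratins reached 1313 TPM and no keratin passed the test of CCl4 against vehicle. Of the 54 members 18 were tested by limma and 0 were called, and of all 13767 genes 0% were called, the smallest adjusted p being 0.222. With robust moderation, in 1 fit over all 12 libraries, and without CCl4 replicate 3, 0 keratins were called too. At an unadjusted p under 0.05 there was 1 keratin, Krt23, and 288 genes in all (2.09%). The adjusted p of all 18 was 0.9999, so that log2 differences below are given as values with their SE. Of the 18, 9 lay above 0 and 9 below, with a median of 0.02, against -0.05 for all genes. The CCl4 libraries lay above all vehicle ones for 1 keratin, Krt23, where 1.56% of genes above 0 did so, and below all vehicle ones for 0, where 1.87% of genes did.

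Basal keratins made the greatest share of keratin TPM in 5 of the 6 skin libraries, and in CCl4 replicate 3 the stress and follicle keratins did. Krt14, the type I basal chain, was at 1133, 1078 and 264 TPM after CCl4 and 709, 1128 and 348 TPM after vehicle, a log2 difference of 0.07 ± 0.71. The groups overlapped, and CCl4 replicate 3 was lowest. Krt5, its type II partner, was at 138, 249 and 36.1 TPM after CCl4 and 81.8, 528 and 100.3 TPM after vehicle, at -0.60 ± 0.92. Krt15, a basal and follicle bulge keratin, was at 351, 1313 and 17.5 TPM after CCl4 and 149, 759.6 and 426 TPM after vehicle, at -0.84 ± 1.36. The spread of Krt15 within the CCl4 group exceeded that between the groups, and without CCl4 replicate 3 its difference was 0.90, that of Krt14 0.76 and that of Krt5 0.18. Krt5 per Krt14 was 0.122, 0.231 and 0.137 after CCl4 and 0.115, 0.468 and 0.288 after vehicle.

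Suprabasal keratins were also lowest in CCl4 replicate 3. Krt10, the type I suprabasal chain, was at 502, 475 and 48.3 TPM after CCl4 and 102, 205 and 352 TPM after vehicle, at 0.22 ± 0.93. Krt1, its type II partner, was at 69.6, 62.0 and 3.48 TPM after CCl4 and 23.3, 86.8 and 26.2 TPM after vehicle, at -0.51 ± 1.08. Krt77, a further type II keratin placed in this class, was at 279.7, 113 and 4.88 TPM after CCl4 and 44.6, 96.4 and 77.7 TPM after vehicle, at -0.30 ± 1.24. In all 3 genes CCl4 replicates 1 and 2 lay within or above the vehicle range and replicate 3 below it. Without replicate 3 the differences were 1.32 for Krt10, 0.79 for Krt1 and 1.34 for Krt77, and none was called. Krt78, a further type II member of the class, was at 9.01, 3.34 and 0.46 TPM after CCl4 and 0.92, 4.88 and 3.61 TPM after vehicle, and its groups overlapped. Krt2, a late suprabasal keratin, reached 2.25 TPM, and Krt9, the palm and sole keratin, 0.03 TPM.

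Krt17, Krt6a, Krt16 and Krt75 of the stress and follicle class had their highest skin value in CCl4 replicate 3, whereas Krt79 of the same class had its lowest there. Krt17, a wound and follicle keratin, was at 137, 222 and 589.6 TPM after CCl4 and 119.9, 184 and 58.6 TPM after vehicle, at 1.25 ± 0.71. Krt6a, a type II wound keratin, was at 3.03, 4.00 and 87.0 TPM after CCl4 and 3.25, 5.42 and 2.04 TPM after vehicle, at 1.47 ± 1.13. Only CCl4 replicate 3 of these 6 libraries exceeded 10 TPM for Krt6a, and without it the difference was 0.04. Krt16, the type I stress keratin, was at 274, 26.2 and 325 TPM after CCl4 and 115, 169 and 9.65 TPM after vehicle, at 1.18 ± 1.23. Its values were high and low in both groups. Krt75, a companion layer keratin, did not pass the filter and was at 0.05, 0.35 and 19.7 TPM after CCl4 and 0.42, 0.72 and 1.27 TPM after vehicle. Without CCl4 replicate 3 the difference was 0.67 for Krt17 and 0.54 for Krt16.

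Krt79, a keratin of the follicle opening, was at 135, 44.9 and 1.42 TPM after CCl4 and 192, 15.9 and 3.25 TPM after vehicle, at 0.04 ± 1.65. It was highest in replicate 1 of each group. Among hair shaft keratins Krt83 was at 60.9, 4.97 and 1.10 TPM after CCl4 and 37.8, 5.63 and 6.94 TPM after vehicle, at -0.47 ± 1.24, with the same libraries numbered 1 on top. Without CCl4 replicate 3 the difference was 1.71 for Krt79 and 0.60 for Krt83. Krt32, a hair cuticle keratin, was at 4.62, 9.32 and 0.17 TPM after CCl4 and 0.92, 2.86 and 8.29 TPM after vehicle, and its groups overlapped. The other hair shaft members stayed under 1 TPM in all libraries. Of the inner root sheath genes Krt28 reached 1.64 TPM in CCl4 replicate 1 and 1.42 TPM in vehicle replicate 1, and the others stayed under 1 TPM. The mucosal keratin Krt4 reached 1.38 TPM, and the remaining mucosal members, Krt24, Krt42, Krt90 and Krt222 stayed under 1 TPM. Markers of follicle matrix and sebocytes summed to 353 TPM in each library numbered 1, and to 39.1 and 93.6 TPM in the other CCl4 libraries and 21.2 and 16.0 TPM in the other vehicle libraries. In the CCl4 and vehicle libraries numbered 1 the sebocyte gene Cidea was at 222 and 190 TPM. The follicle gene Msx2 was at 5.09 and 2.65 TPM there, and the follicle matrix gene Lef1 at 0.11 and 0.27 TPM. Lef1 was highest in CCl4 replicate 3, at 10.7 TPM.

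Krt23, a type I keratin of glandular and other epithelia, was at 31.5, 24.8 and 54.9 TPM after CCl4 and 3.53, 13.4 and 19.8 TPM after vehicle. All CCl4 libraries lay above all vehicle ones, with a log2 difference of 1.70 ± 0.75 (limma unadjusted p = 0.0478, adjusted p = 0.9999, n = 3 per group), or 1.06 without vehicle replicate 1 and 1.38 without CCl4 replicate 3. Krt80, a widely expressed type II keratin, was at 29.8, 8.0 and 93.8 TPM after CCl4 and 8.52, 30.4 and 4.84 TPM after vehicle, at 1.31 ± 0.98, or 0.47 without CCl4 replicate 3, and the groups overlapped. Keratinocyte markers other than keratins, 16 of which were tested and 0 called, had a median of 0.84 in the same comparison, and macrophage markers, 11 tested and 0 called, a median of -2.91. Their part in the keratin levels was not tested.

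Simple-epithelial keratins were low in most skin libraries. Krt8 was at 9.36, 0.32 and 0.84 TPM after CCl4 and 8.19, 68.8 and 0.28 TPM after vehicle, at -1.68 ± 1.37. Krt18 was at 6.46, 1.25 and 2.56 TPM after CCl4 and 9.06, 18.0 and 2.44 TPM after vehicle, at -1.15 ± 0.82. Krt19 was at 1.52, 2.01 and 1.30 TPM after CCl4 and 2.02, 52.6 and 1.89 TPM after vehicle, at -1.58 ± 1.07. Vehicle replicate 2 was the highest library for all 3, and the other libraries of the groups overlapped. Without vehicle replicate 2 the difference was -0.59 for Krt18 and -0.19 for Krt19, and Krt8 did not pass the filter. Without CCl4 replicate 3 the differences were -1.34 for Krt8, -1.09 for Krt18 and -1.50 for Krt19. Krt7 stayed at or under 1.53 TPM and did not pass the filter. Krt20 was at 0.10, 18.3 and 0.40 TPM after CCl4 and 0.27, 22.3 and 0 TPM after vehicle, high in replicate 2 of both groups. Merkel cell markers other than Krt20 summed to 1.40, 6.06 and 1.95 TPM after CCl4 and 1.88, 3.18 and 1.64 TPM after vehicle, and Atoh1, the factor that specifies Merkel cells, reached 0.41 TPM.

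**Figure D5:**
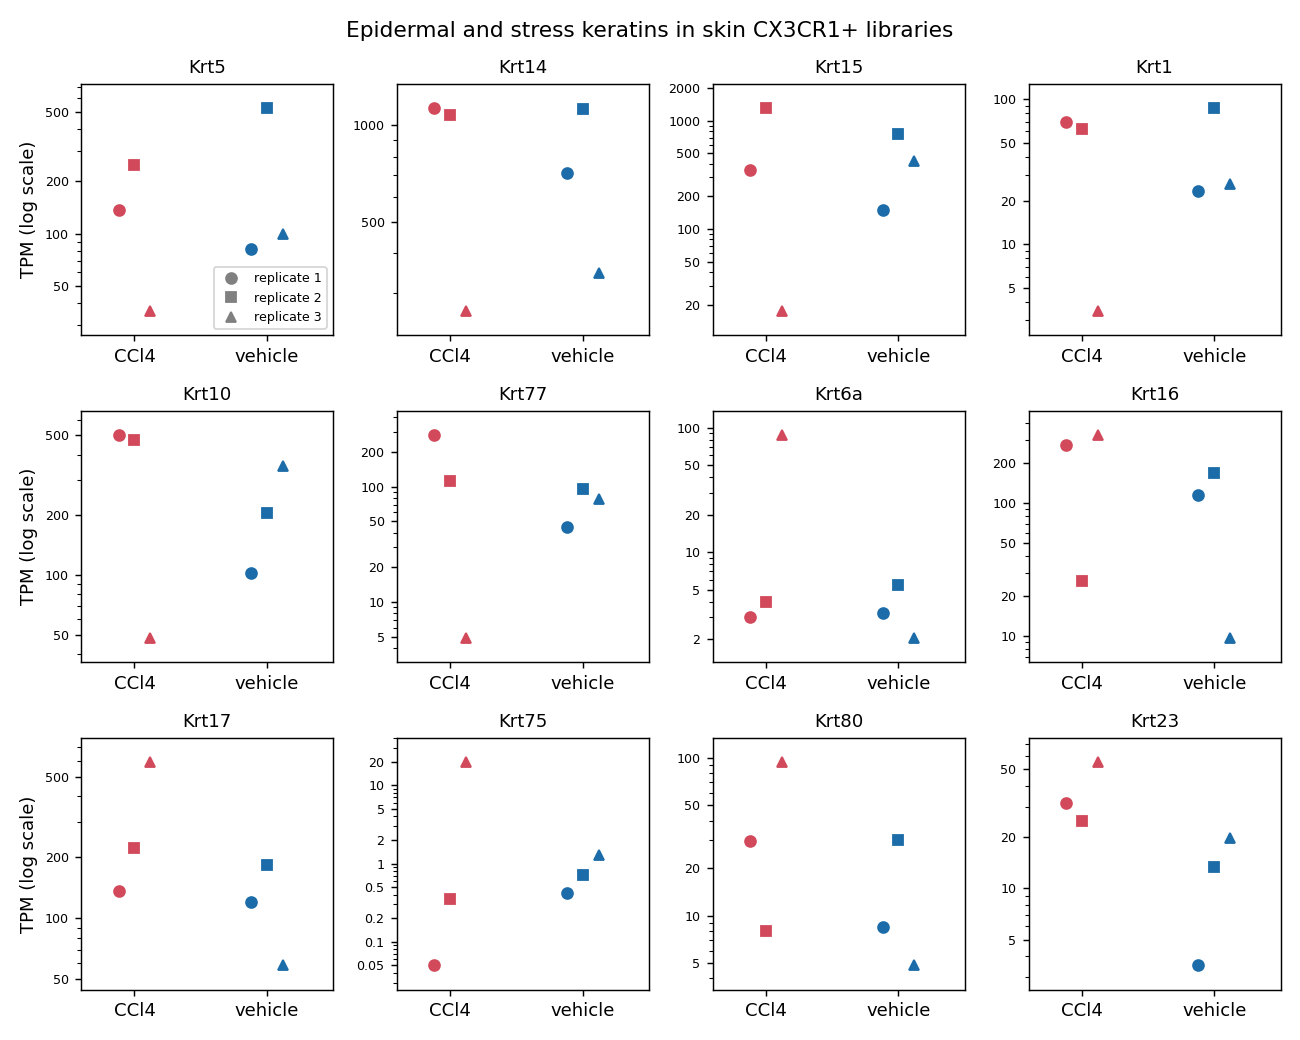
Basal, suprabasal, stress and other keratins in the skin CX3CR1+ libraries in TPM on a log scale, 1 panel per gene and 1 point per library, with CCl4 at the left and vehicle at the right and the marker shape giving the replicate. CCl4 replicate 3 is the lowest point for Krt5, Krt14, Krt15, Krt1, Krt10 and Krt77 and the highest for Krt6a, Krt16, Krt17, Krt75, Krt80 and Krt23.

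CCl4 replicate 3 held the lowest or highest value of most leading keratins. Of the 18 keratins at 10 TPM or more in some skin library, 9 had their lowest skin value there (Krt1, Krt5, Krt10, Krt14, Krt15, Krt19, Krt77, Krt79 and Krt83) and 6 their highest (Krt6a, Krt16, Krt17, Krt23, Krt75 and Krt80). These sets do not follow the classes throughout, since Krt79 of the stress and follicle class is among the lowest. Stress and follicle keratins made 65.8% of its keratin TPM, against 17.3% and 8.11% in the other CCl4 libraries and 26.7%, 11.03% and 5.14% in the vehicle libraries. Krt17 per Krt14 was 2.23 there, against 0.121 to 0.206 in the other skin libraries. These counts describe 1 library and carry no test. Krt6a shares 34% of its 100-base windows with other genes, mostly Krt6b, and Krt16 shares 24.3%, mostly with Gm11597, so that reads of these genes may be split between copies; Krt6b itself reached 0.96 TPM in this library.

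The genes that work with keratins gave no calls in the skin cells. Of desmosome and plakin genes 16 were tested, of hemidesmosome genes 9, of keratinocyte and follicle transcription factors 12, of other intermediate filament genes 6, and of epithelial partners 12, and limma called 0 in each list. The lowest p among desmosome genes was that of Perp, at 563, 332 and 746 TPM after CCl4 and 305, 344 and 150 TPM after vehicle, at 1.05 ± 0.57. Among epithelial partners it was that of Spp1, at 124, 474 and 1094 TPM after CCl4 and 146, 28.4 and 106 TPM after vehicle, at 2.38 ± 0.90. Among transcription factors it was that of Msx2, a follicle factor, at 5.09, 3.31 and 4.14 TPM after CCl4 and 2.65, 1.09 and 0.55 TPM after vehicle, at 1.17 ± 0.57. All 3 CCl4 libraries exceeded the vehicle ones for Msx2, and not for Perp or Spp1.

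Whether CCl4 acted differently on keratins in the skin cells and in liver was tested in 1 model over all 12 libraries. Of the 54 keratins only Krt8, Krt18 and Krt10 passed the filter in both tissues. On the deposited scale limma called 0 of the 3, and 0 had an unadjusted p under 0.05. Of 9255 genes 0.216% were called and 20.2% had an unadjusted p under 0.05. The effect in skin minus that in liver was -1.32 ± 0.88 for Krt18 (log2, SE; adjusted p = 0.408, n = 3 per group), -1.41 ± 1.60 for Krt8 (adjusted p = 0.664) and 0.47 ± 1.09 for Krt10 (adjusted p = 0.851). Without mitochondrial genes and copies, where 5.93% of genes were called and the median of all genes was -0.91 instead of 0.54, the difference was -3.04 ± 0.87 for Krt18 (adjusted p = 0.0581), -3.12 ± 1.62 for Krt8 (adjusted p = 0.242) and -0.53 ± 1.13 for Krt10 (adjusted p = 0.774). None of these 3 keratins passed an adjusted p of 0.05 on any of the 4 scales. The unadjusted limma p of Krt18 was 0.0444 with median-ratio scaling and 0.0060 with quantile normalization (adjusted p = 0.272 and 0.134). It was 0.0042 without mitochondrial genes. Tissue, assay, cell selection and mouse strain cannot be told apart in this contrast either.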

How the data were processed

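RNA-seq was made from 6 dorsal skin CX3CR1+ cell samples (smart-seq) and 6 liver samples (bulk), 3 per group. The authors deposited 1 table of TPM for all libraries, normalized for length and library total. The submitters' processing notes name fastp, HISAT2, StringTie, RSEM and the GRCm39 genome; the sources used here give neither their versions nor the tool behind the TPM. TPM hold no depth, so no counting interval is given, and exact zeros are written as listed at 0. Replicate numbers are those of the sample titles; the library names of some samples carry other numbers. The 1 protocol in the labels describes poly(A) bulk libraries, not smart-seq.

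Of the gene identifiers 51884 had a symbol and 5296 had none, and 66 repeated a symbol. Values were tested as log2(TPM + 1) with limma 3.58.1 in R 4.3.3 (lmFit, eBayes with trend, two-sided), each tissue alone. Genes at 1 TPM or more in at least 3 of 6 libraries were tested, p-values were adjusted by Benjamini-Hochberg over all of them, and calls were made under 0.05. Log2 differences are CCl4 minus vehicle and understate the change of low genes. Tissue and interaction contrasts used 1 model of 4 group means. The p-values measure only the spread between these samples; a single value compared by an exact permutation test could not go below 0.1 with 3 libraries against 3, so none was run. The fits were tested on simulated data. Sums, shares and ratios over keratins carry no test. The mitochondrial near copies are 7 genes sharing at least 80% of their 50-base windows with the 37 mitochondrially encoded genes. Windows of 100 bases were compared over GENCODE M21 transcripts. Motifs were searched in 250 bases of RefSeq promoters (GRCm38.p6).

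The members, lists and tests were chosen with earlier results of these data known. Values in every library of at least 1 tissue are given for 12 leading members of the classes, for every keratin called in liver or skin and for those with a group mean of at least 10 TPM. Of other lists, up to 4 genes with the lowest p were eligible to be named. Krt88 was in no class and was counted with the other keratins. Alternatives were pseudocounts of 0.1 and 5, no filter, a filter at 5 TPM, median-ratio, quantile, mitochondria-free and keratin-free scaling, a replicate block, robust eBayes, 1 fit over all 12 libraries, the skin libraries numbered 1 as a batch or left out, and each library left out in turn.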

Additional observations from a re-analysis of the deposited data

How the results depend on the processing

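Depth is unknown, and 3 libraries per group bound the precision. In liver 0 keratins were called with TPM as deposited, 3 with no filter on low values, 2 with quantile normalization, 2 after rescaling without mitochondrial genes and copies, and 7 with that rescaling and no filter, a combination chosen after seeing the data. The log2 difference of Krt8 in liver, negative as deposited, was 0.341 with median-ratio scaling, 1.03 with quantile normalization and 1.43 without mitochondrial genes, with or without the filter. That of Krt10 was 0.0113 with median-ratio scaling and 0.741 without mitochondrial genes. The rescaling itself raises every other gene in the CCl4 livers; the cause of the other changes was not tested.

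Leaving out 1 library at a time moved the log2 difference of Krt18 in liver between -0.185 and 0.427. In the skin cells it moved Krt1 between -1.20 and 0.786, Krt10 between -0.353 and 1.32, Krt14 between -0.381 and 0.758, Krt15 between -2.18 and 0.898, Krt16 between -0.0609 and 2.33, Krt5 between -1.19 and 0.248, Krt77 between -1.45 and 1.34, Krt79 between -1.21 and 1.71 and Krt83 between -1.84 and 0.599. With both skin libraries numbered 1 left out, Krt10 was at -0.815 and Krt14 at -0.231; Krt14 was at -0.137 with quantile normalization and Krt79 at -0.0554 with a pseudocount of 0.1. None of these skin values was called, and 0 keratins were called in the skin cells under any alternative run. The count of keratins called between vehicle skin cells and vehicle liver was 15 to 18 with 1 library left out, 12 with a pseudocount of 5 and 18 with 0.1.

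A replicate block, by the replicate numbers of the titles, changed no count of keratin calls: 0 in liver, 0 in skin, 0 for the difference between tissues and 17 between tissues. For CCl4 and vehicle libraries with the same title number, deviations of log2(TPM + 1) from the group mean were correlated across the tested genes. These correlations were -0.0381, 0.0796 and 0.0683 in liver and 0.587, 0.0923 and 0.35 in skin, so title numbers were not taken as pairs. The library names share only 2 numbers between the skin groups, with correlations of 0.587 and -0.185, and no block was fitted on them.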

Other observations

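The skin libraries titled replicate 2 were both high in more than Krt20, although their library names carry different numbers. Hepatocyte markers summed to 111 TPM in CCl4 replicate 2 and 113 TPM in vehicle replicate 2, against 7.31 and 2.67 TPM in CCl4 replicates 1 and 3 and 1.00 and 19.5 TPM in vehicle replicates 1 and 3. Different genes led these sums: Cyp2e1 was at 90.8 TPM in CCl4 replicate 2 and 2.24 TPM in vehicle replicate 2. Apoa1 was at 6.83 TPM in CCl4 replicate 2 and 92.5 TPM in vehicle replicate 2. In vehicle replicate 3 Cyp2e1 was at 18.3 TPM. Fibroblast markers summed to 4376 TPM in CCl4 replicate 2 and 6881 TPM in vehicle replicate 2, the highest sum in each group. What these libraries share was not tested.

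The type II sum divided by the type I sum of keratin TPM was 0.301, 0.156 and 0.193 in skin cells after CCl4 and 0.331, 0.331 and 0.186 after vehicle. In liver it was 0.719, 0.584 and 0.780 after CCl4 and 0.904, 0.991 and 0.931 after vehicle, without overlap between the liver groups. These ratios were computed after the Krt8 to Krt18 ratio had been seen and are given as values.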
